A study of Arabidopsis thaliana with 12 samples.

Results

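FLM (AT1G77080, also called MAF1), MAF2 (AT5G65050) and MAF3 (AT5G65060) are MADS-box genes of *Arabidopsis thaliana* that hold back flowering. Every splicing event that the deposited table lists for these 3 genes was taken, whatever its type or value. That gave 5 of the 638 listed events, in 3 of 511 genes: 3 events of FLM, 1 of MAF2 and 1 of MAF3. The study's text reports more events than 638 for the same number of genes, and the reason for the gap could not be settled. Columbia (Col-0) plants were raised for 5 weeks in short days of 8 h light and 16 h dark at 16 °C. They were then moved to 25 °C and sampled 1, 3 or 5 days later, or kept at 16 °C and sampled at day 1. Tissue from about 10 plants per sample, enriched for the shoot apical meristem and, by the labels, including young leaves, was used for RNA-seq, with 3 samples in each of the 4 groups (12 in all). The plants carried no transgene or mutation, and no 16 °C group was sampled at days 3 and 5, so warm plants of those days were also older. The table holds splicing shares only, so the tissue could not be checked against marker genes.

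The measure is PSI, the "percentage spliced in", given from 0 to 1: the share of informative transcripts that carry the reference isoform. In the case of a retained intron this is the share that keeps the intron. For alternative sites and mutually exclusive exons the sources used here do not say which isoform is the reference, so a higher or lower PSI there is a change in share without a named isoform. The table gives 1 value per group and none per sample. The spread between replicates, the read depth and a test across samples are therefore not available for any value below. The only error that can be stated as a number is the rounding to 2 decimals. A call by the authors did require smaller PSI differences within than between conditions, and a minimum of isoform-specific reads in replicates. An event is said to have risen or fallen only where the authors marked that day as different from 16 °C. In a bulk tissue, a shift of splicing inside cells and a shift in which cells were present cannot be told apart.

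FLM, MAF2 and MAF3 belong to the FLC clade, a family of close relatives of the vernalization gene FLOWERING LOCUS C. Their proteins bind DNA through the MADS domain and, together with the MADS protein SVP, keep the flowering signal FT and the integrator SOC1 low while it is cool. FLM pre-mRNA is known from earlier work to be spliced to either of a pair of neighbouring exons, giving the FLM-β and FLM-δ forms, and MAF2 pre-mRNA to keep or lose the third intron. A transcript in which a stop codon comes early is a common target of nonsense-mediated decay, which lowers its steady-state share, and PSI is a share of steady-state transcripts.

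The 3 genes have one architecture, so the parts that the events concern can be set side by side. FLM lies on chromosome 1 (28955483 to 28960234, plus strand, TAIR10.1). MAF2 (25982254 to 25986435) and MAF3 (25987309 to 25991412) follow each other on the plus strand of chromosome 5, 873 bases apart with no gene between. For each gene 1 RefSeq transcript with 7 exons was chosen here as the main one, out of 11 for FLM, 5 for MAF2 and 3 for MAF3. In these main transcripts exons 2 to 6 are 58, 62, 100, 42 and 42 bases long, and each coding sequence holds 196 codons before the stop. Other annotated transcripts differ, such as one of MAF3, also with 7 exons, that holds 185 codons. The coding sequences of MAF2 and MAF3 were 93.6% identical, those of FLM and MAF3 89.7% and those of FLM and MAF2 87.3%. The longest run of identical bases between main transcripts was 59 bases for MAF2 and MAF3, 61 for FLM and MAF3 and 44 for FLM and MAF2. The study's paired-end reads were longer than these runs, so no whole read could match more than 1 main transcript exactly. The sources do not say how reads that fit more than 1 of these genes with mismatches were placed. Whether such reads moved PSI of the 5 events was not tested.

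**Figure D1:**
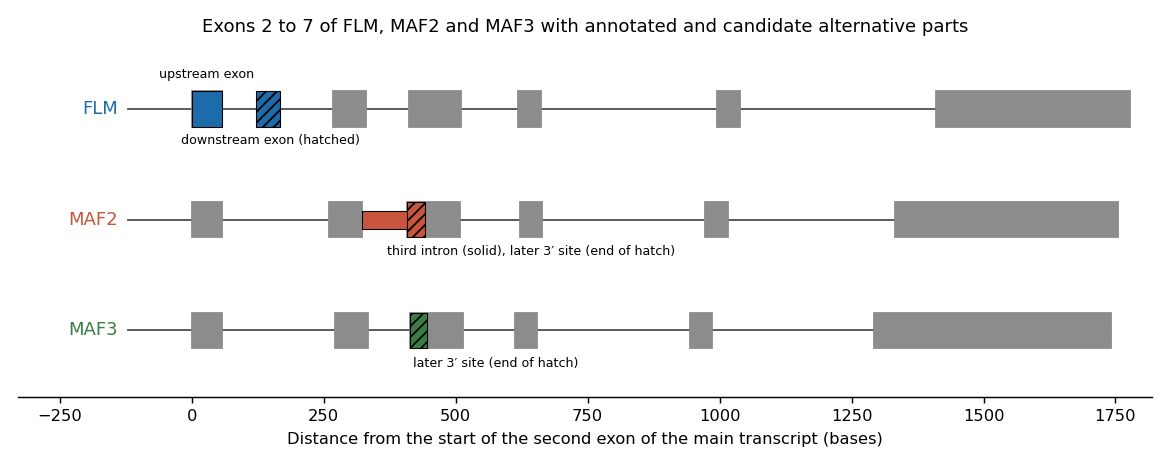
Exons 2 to 7 of the main RefSeq transcripts of FLM, MAF2 and MAF3, drawn to scale as distance in bases from the start of the second exon (the last exon includes its untranslated end; the first exon and most of the first intron lie to the left and are not drawn). Coloured boxes mark the parts described in the text: the pair of FLM exons 58 and 46 bases long, the third intron of MAF2, and the 33 bases between the annotated 3′ splice sites of MAF2 and MAF3.

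The table names a gene and a type for each event and does not place it within the gene, so what follows are candidates from the RefSeq annotation. FLM has 11 annotated transcripts, with a single pair of mutually exclusive exons, 7 introns that another transcript keeps, and no pair of alternative 5′ sites. The study describes the retained intron of FLM as the second one, which is not among those 7.

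The third introns are shown next, because MAF2 retention is known there and the MAF3 site pair lies at the end of the same intron. Only the first intron of MAF2 is kept by another of its 5 RefSeq transcripts, so retention of the third is a candidate from earlier work and not from this annotation. The third intron of FLM is printed for its likeness to that of MAF2 and is not the intron that the study names for the FLM event. Capitals mark the intron, with 10 exon bases on either side.
MAF2, the third intron, chr5:25984993-25985098, plus strand: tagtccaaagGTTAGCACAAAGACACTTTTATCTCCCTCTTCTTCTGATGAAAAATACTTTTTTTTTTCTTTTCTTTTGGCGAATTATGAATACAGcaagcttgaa
FLM, the third intron, chr1:28958654-28958754, plus strand: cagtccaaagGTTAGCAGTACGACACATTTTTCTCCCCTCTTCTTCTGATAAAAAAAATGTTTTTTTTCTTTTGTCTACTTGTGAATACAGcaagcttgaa

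The third introns of FLM, MAF2 and MAF3 share their first 6 bases, GTTAGC, which begin 0.503% of annotated introns, and their last 6, ATACAG, which end 1.22%. Aligned over their length, those of MAF2 and MAF3 were 85.1% identical, those of FLM and MAF3 84.2% and those of FLM and MAF2 78.2%. The third intron of MAF2 has 86 bases, and keeping it shifts the frame to a stop after 145 codons, which ends at base 47 of the fourth exon. The third intron of FLM, which another annotated transcript keeps, differs in this. Keeping it adds 27 codons without a shift of frame and leaves 223 before the stop. That does not describe the listed FLM event, which the study places in the second intron. For retention there, the study describes a transcript that nonsense-mediated decay targets.

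MAF3 has a single annotated pair of alternative 3′ sites, at the start of the fourth exon, and MAF2 has the counterpart. Capitals mark the 33 bases between the earlier and the later site, which the earlier site keeps and the later one removes.
MAF3 site pair, chr5:25990044-25990136, plus strand: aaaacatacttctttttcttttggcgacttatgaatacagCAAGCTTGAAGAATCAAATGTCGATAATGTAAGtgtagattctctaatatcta
MAF2 site pair, chr5:25985049-25985141, plus strand: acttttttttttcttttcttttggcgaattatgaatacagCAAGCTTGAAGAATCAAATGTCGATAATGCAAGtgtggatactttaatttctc

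The 33 bases were identical at 32 positions between MAF2 and MAF3, and the later site takes away 11 codons without a shift of frame, leaving 185 before the stop. The table's own annotation text gives 185 residues for MAF3 and 196 for FLM and MAF2. The matching 33 bases of FLM were identical to MAF3 at 32 positions and to MAF2 at 31, but no FLM transcript is annotated to use a later site there. The later sites end in TGTAAG (MAF3) and TGCAAG (MAF2), each found at the end of 0.116% of annotated introns. In the table as a whole, 70.7% of the alternative 3′ site events with a reference gene, 74.0% of the retained introns and 63.0% of the alternative 5′ site events lie in a gene with an annotated event of that type. For its alternative 5′ site FLM is outside that share.

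The retained intron event of FLM, which the study places in the second intron, had a higher PSI at every warm time. PSI was 0.31, 0.32 and 0.30 at 25 °C on days 1, 3 and 5, against 0.15 at 16 °C. It rose on all 3 days, by 0.16, 0.17 and 0.15. These are ratios of 2.07, 2.13 and 2.0, and rounding alone allows 1.97 to 2.17 for the first day. The 3 warm values lay within 0.02 of each other, so that the retained form was at about the same share from the first day on, and in each group most informative transcripts lacked the intron.

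The alternative 5′ site of FLM showed the largest change of the 5 events on the PSI scale. Its PSI was 0.63, 0.60 and 0.59 at 25 °C on days 1, 3 and 5, against 0.89 at 16 °C, and it fell on all 3 days, by 0.26, 0.29 and 0.30. The isoform that is not the reference thus held 0.37, 0.40 and 0.41 of informative transcripts at 25 °C, against 0.11 at 16 °C, 3.36, 3.64 and 3.73 times as much. On day 5 only 1 of the other alternative 5′ site events in the table had a larger fall.

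The mutually exclusive exons of FLM are 1 of only 2 events of that type in the table. PSI was 0.84, 0.78 and 0.75 at 25 °C on days 1, 3 and 5, against 0.93 at 16 °C. It fell by 0.09, 0.15 and 0.18, so that day 1 showed 50% of the change of day 5. The other exon was used by 0.16, 0.22 and 0.25 of informative transcripts at 25 °C, against 0.07 at 16 °C. Of the 5 events this one changed most between the warm days, by 0.09 from day 1 to day 5.

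The FLM events cannot be taken as independent of each other, since reads from 1 stretch of a gene can count for more than 1 event. At 25 °C on days 1, 3 and 5 the share without the reference 5′ site stood above that with the retained intron by 0.06, 0.08 and 0.11, while at 16 °C it stood 0.04 below it. Each PSI is a share among the informative transcripts of its own event. The difference between events is therefore not itself a share of FLM transcripts, and nothing is read from its sign. Whether these events describe the same transcripts was not tested, since the positions of the events are not in the table.

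In MAF2 the retained form was the majority at 25 °C and the minority at 16 °C. Retention was 0.52, 0.54 and 0.57 at 25 °C on days 1, 3 and 5, against 0.33 at 16 °C. It rose on all 3 days, by 0.19, 0.21 and 0.24, which are ratios of 1.58, 1.64 and 1.73. All warm values were above 0.5. Of the 148 listed retained introns that were under 0.5 at 16 °C, 20 (13.5%) were over it on all 3 days. The candidate intron printed above carries the frame to an early stop, and whether it is the listed event was not tested.

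MAF3, the neighbour of MAF2, started nearest to a single isoform. PSI of its alternative 3′ site was 0.84, 0.77 and 0.81 at 25 °C on days 1, 3 and 5, against 0.97 at 16 °C. It fell on day 3, by 0.20, the one day on which it was called. The differences of days 1 and 5, -0.13 and -0.16, were not called. The other isoform held 0.16, 0.23 and 0.19 at 25 °C, against 0.03 at 16 °C. A ratio against so low a share is imprecise: on day 3 it was 7.67, and rounding alone allows 6.43 to 9.40.

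**Figure D2:**
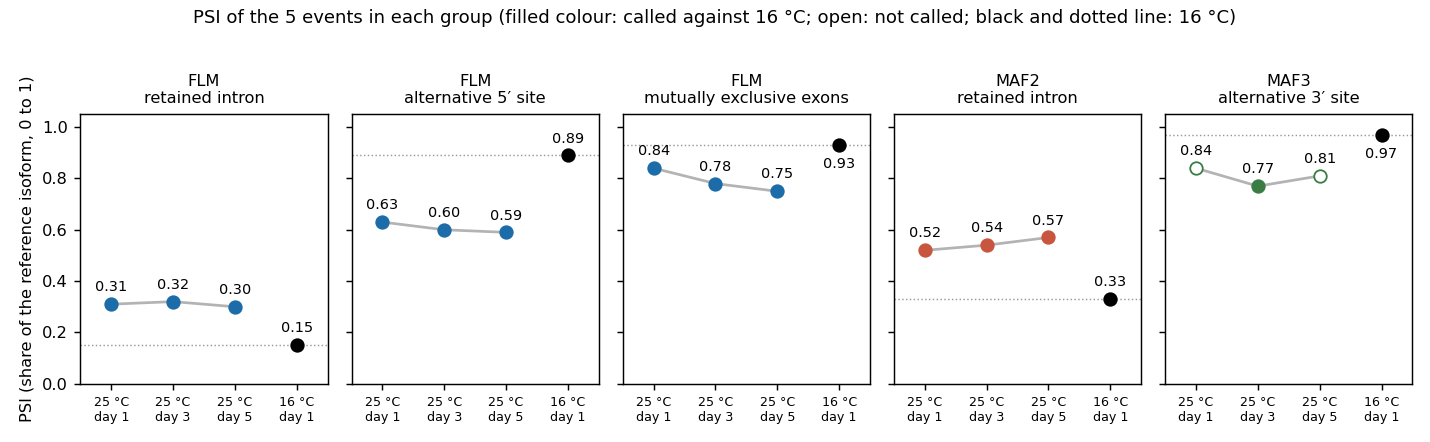
PSI (0 to 1, y axis) of the 5 events of FLM, MAF2 and MAF3 in the 4 groups, 1 deposited value per group; a line joins the 25 °C days, filled coloured points were called different from 16 °C, open points were not, and the black point and dotted line give 16 °C. Both retained introns lie above their 16 °C value at each warm time (0.30 to 0.32 in FLM, 0.52 to 0.57 in MAF2), and the alternative sites and exons lie below it.

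Of the 5 events, 4 were called on day 1 (59.9% of all listed events were), 5 on day 3 (58.0%) and 4 on day 5 (52.8%). The 4 events of FLM and MAF2 were called on all 3 days, which held for 21.9% of the table. Both retained introns were called higher on all 3 days, against 9.76% of the 246 listed ones. Among all 246, PSI averaged over days 1, 3 and 5 exceeded the 16 °C value in 119 and was below it in 127. With a change of at least 0.1 in place of the call, 4, 5 and 5 events passed on days 1, 3 and 5 (60.8%, 59.9% and 56.4% of the table). With at least 0.2, 1, 3 and 2 passed (19.7%, 18.0% and 16.6%). An event enters the table only if called on some day, so these shares are higher than they would be among all events measured.

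The median absolute change of the 5 events was 0.16, 0.20 and 0.18 on days 1, 3 and 5, and 0.11 on each day over the 638 events. Over the 140 events called on all 3 days, it was 0.17, 0.16 and 0.16, so the 5 events were near that level. Of the 5 values, 3 come from FLM alone. Averaged over the days, the FLM alternative 5′ site (-0.28) ranked 28 of 638 by size, the MAF2 intron (0.21) 86, the MAF3 site (-0.16) 161, the FLM retained intron (0.16) 169 and the FLM exon pair (-0.14) 223. Within their own type, the FLM alternative 5′ site ranked 3 of 112, the MAF2 intron 38 and the FLM retained intron 63 of 246, and the MAF3 site 55 of 213. These ranks describe the events of the table used here, which are fewer than the study's text reports, and are no test.

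A difference in PSI depends on where the share starts, and on a scale of odds the order of the 5 events was another one. The odds of the isoform that was minor at 16 °C were 6.16, 9.66 and 7.58 times as high at 25 °C on days 1, 3 and 5 for the MAF3 site, and 4.75, 5.39 and 5.62 times for the FLM alternative 5′ site. They were 2.53, 3.75 and 4.43 times as high for the FLM exon pair. For the retained introns they were 2.55, 2.67 and 2.43 times as high in FLM and 2.20, 2.38 and 2.69 times in MAF2, so that on day 1 the FLM exon pair and the FLM retained intron differed by less than rounding. By mean change in log odds MAF3 ranked 13 and MAF2 229 of 638. The MAF3 mean includes days 1 and 5, on which its difference was not called. The MAF3 ratio rests on a 16 °C share of 0.03, and rounding alone allows 8.00 to 12.0 on day 3.

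**Figure D3:**
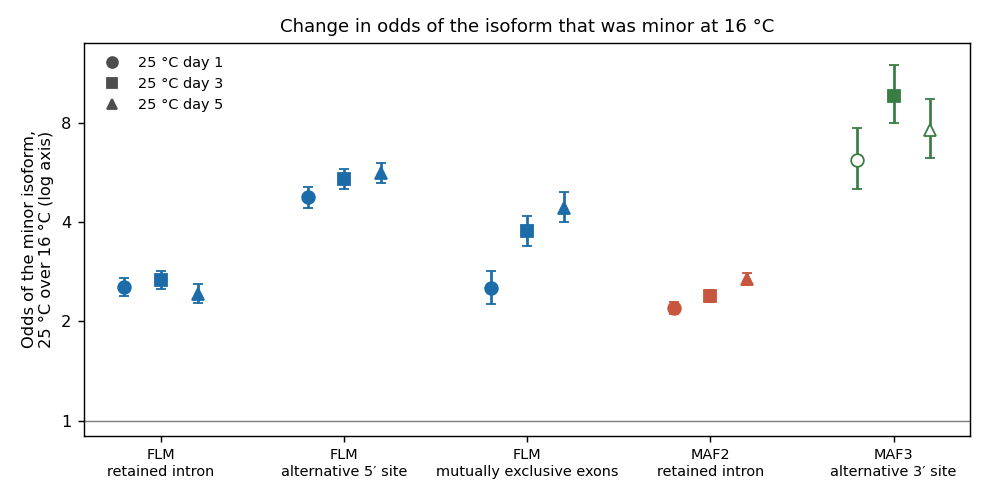
Odds of the isoform that was minor at 16 °C, as the ratio of 25 °C over 16 °C on a log axis, for the 5 events on days 1 (circles), 3 (squares) and 5 (triangles); bars give the range that rounding of the deposited values allows, not replicate error, and open symbols mark days that were not called. MAF3 is highest, at 6.16, 9.66 and 7.58, and the retained introns lie between 2.20 and 2.69, with the FLM exon pair at 2.53 on day 1 among them.

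Over time the events took different courses. The FLM exon pair, the FLM alternative 5′ site and the MAF2 intron were further from their 16 °C value on each later day. From day 1 to 3 and from day 3 to 5 PSI changed by -0.06 and -0.03 for the exon pair, by -0.03 and -0.01 for the alternative site and by 0.02 and 0.03 for MAF2. Rounding alone can move such a step by up to 0.01, which is all of the last step of the alternative site. The replicate error of these small steps is unknown. By the rounded values, being further from 16 °C on each later day held for 84 of 638 listed events (13.2%) and for 26 of the 140 called on all 3 days (18.6%). The FLM retained intron and the MAF3 site were furthest away on day 3, for FLM by no more than rounding allows between days 1 and 3. Day 1 showed 86.7% of the day 5 change for the FLM alternative 5′ site, 81.2% for the MAF3 site and 79.2% for MAF2. For the MAF3 site neither of these days was called. The FLM retained intron stood at 107%, by a step between days 1 and 5 no larger than rounding allows. All warm days share the single 16 °C group, so that an error in its value would move the 3 days of an event together.

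**Figure D4:**
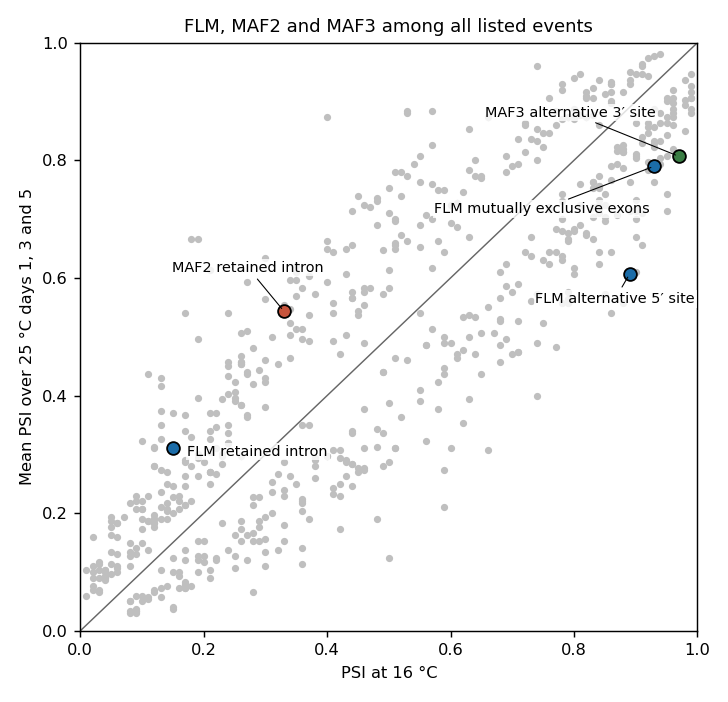
Mean PSI over the 3 days at 25 °C (y axis) against PSI at 16 °C (x axis) for the 638 listed events (grey) with those of FLM (blue), MAF2 (red) and MAF3 (green); the line marks no change. The FLM alternative 5′ site (0.63, 0.60 and 0.59 at 25 °C against 0.89 at 16 °C) lies farthest from the line among the 5 events, and the band near the line is sparse because only called events are listed.

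Similar events were sought within each type: 246 retained introns, 213 alternative 3′ sites, 112 alternative 5′ sites and 2 exon pairs. A smaller pool tends to leave larger differences, so distances are not compared between types. The listed events of the same type with the most similar PSI over the 4 groups were found by the root mean square difference. For the MAF2 intron these were a retained intron of AT1G79880 (difference 0.015, PSI 0.52, 0.57 and 0.57 at 25 °C against 0.33 at 16 °C), one of SOL1 (AT1G71696, 0.0187) and another of AT1G79880 (0.0332). For the FLM retained intron they were introns of the ubiquitin-conjugating enzyme gene UBC9 (AT4G27960, 0.0245), of BGLU6 (AT1G60270, 0.0287) and of the immune receptor gene RPP4 (AT4G16860, 0.0296). For the FLM alternative 5′ site they were AT2G45380 (0.0628), SPP2 (AT3G52340, 0.0758) and NF-YB1 (AT2G38880, 0.0826). For the MAF3 site they were F2KP (AT1G07110, 0.0324), AT3G49140 (0.0384) and AT5G44530 (0.0387). The only other pair of mutually exclusive exons, in NUDT22 (AT2G33980), differed by 0.332 and went the other way: it rose on day 3, to 0.61 at 25 °C against 0.41 at 16 °C.

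No other gene of the clade was listed: of FLC and of MAF4 and MAF5, the next genes after MAF3 on chromosome 5, 0 of 3 appeared. Of the partner SVP and the targets and relatives FT, TSF, SOC1 and AGL24, 0 of 5 appeared. A list of 13 regulators of FLM or FLC was chosen here. It included SDG8, SDG26, MRG1, MRG2 and JMJ30, for which the study used mutants. Of the 13, 2 were listed with 3 events: on day 1, 0 were called higher and 2 lower, on day 3, 1 and 2, and on day 5, 0 and 1. Among all 638 events, 27.4% were called higher and 32.4% lower on day 1, 30.7% and 27.3% on day 3, and 27.0% and 25.9% on day 5. With so few events in the lists, nothing is read from their counts. The 2 listed regulators were FCA (AT4G16280), an RNA-binding protein that lowers FLC, and HUA2 (AT5G23150), which keeps FLM and FLC expressed. Of FCA, a retained intron fell on all 3 days, with 0.18, 0.15 and 0.13 at 25 °C against 0.28 at 16 °C, and an alternative 5′ site rose on day 3, to 0.58 against 0.43. The HUA2 retained intron fell on days 1 and 3, with 0.77, 0.71 and 0.66 at 25 °C against 0.95 at 16 °C, day 5 not being called. A list of 10 splicing factors tied to FLM was also chosen here. It left out PTB1, PTB2 and PTB3, which the study's text, citing earlier work, ties to FLM splicing. Of the 10, 3 were listed with 6 events, called higher in 1 and lower in 4 on day 1, in 2 and 4 on day 3 and in 1 and 1 on day 5. They were both large subunits of U2AF, the factor that recognises 3′ splice sites, and the kinase CDKG1 (AT5G63370). In U2AF65A (AT4G36690) a retained intron rose on days 1 and 3, with 0.53, 0.45 and 0.41 at 25 °C against 0.34 at 16 °C, and an alternative 3′ site fell on the same days, with 0.40, 0.49 and 0.52 against 0.64. In U2AF65B (AT1G60900) a retained intron rose on days 3 and 5, with 0.68, 0.70 and 0.71 at 25 °C against 0.51 at 16 °C. All 3 CDKG1 retained introns fell on days 1 and 3, and 1 of them, with 0.71, 0.70 and 0.70 at 25 °C against 0.83 at 16 °C, also on day 5. Absence from the table says only that no event of the gene was called, not that its splicing was measured and unchanged.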

How the data were processed

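RNA-seq of 12 samples in 4 groups of 3 was analysed from 1 table. Reads were mapped with TopHat2 (TopHat in the labels) to TAIR10, transcripts were assembled with Cufflinks, events were listed by custom scripts and PSI was estimated with MISO (per the labels and the study's methods). The deposited values are fractions (PSI, 0.01 to 0.99), which the authors give once per group. A call required enough isoform-specific reads in replicates, smaller differences within than between conditions, and a Bayes factor on merged replicates. The calls are used as the authors' marks. Since a Bayes factor grows with depth, whether an event is marked depends on its coverage as well as on its change.

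Differences, ratios and odds (25 °C against 16 °C), ranks and rounding ranges were computed in Python 3.11.15 with pandas 2.3.3 and numpy 2.4.6. No test was run. Gene models, splice sites, reading frames and sequences came from RefSeq (TAIR10.1), and coding sequences and introns were aligned globally with Biopython 1.88. Of 483 genes of the table with coordinates and a reference gene, 476 had the start and end of an annotated coding sequence, so both builds use the same positions there. The functions were tested on simulated data (tables and gene models with known answers). Members and lists were chosen with earlier results of these data known. All 5 events are named, with the 3 most similar events of the same type and every gene of the lists that is in the table. Alternatives left out each day, took the limits of rounding, used log odds, compared other sets of events, or replaced the call by a change of at least 0.1 or 0.2. The sequence of the FLM exon pair is not reported here.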

Additional observations from a re-analysis of the deposited data

How the results depend on the processing

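The mean change of each event kept its sign when any warm day was left out and at both limits of rounding. It ranged from 0.15 to 0.17 for the FLM retained intron, from -0.27 to -0.30 for the FLM alternative 5′ site, from -0.12 to -0.17 for the FLM exon pair, from 0.20 to 0.23 for MAF2 and from -0.14 to -0.18 for MAF3. With a change of at least 0.2 in place of the call, 1, 3 and 2 events passed on days 1, 3 and 5, against 4, 5 and 4 called; the bar is higher by construction. The median absolute mean change was 0.16, and 0.21 with 1 event per gene. Ranks moved by over 1.5 times under log odds for MAF3 (top 2.04% of listed events, against 25.2% by difference), MAF2 (35.9% against 13.5%) and the FLM exon pair (14% against 35%). Both MAF3 ranks include days 1 and 5, which were not called. Against only the events called on all 3 days, the FLM retained intron stood at 50.7%, the FLM alternative 5′ site at 14.3% (2.68% within its type, 4.39% of all), the FLM exon pair at 63.6% and MAF2 at 27.9%. No paired analysis was possible because the table gives 1 value per group, and for the same reason no replicate could be left out. Depth per event is unknown beyond the minimum that a call required.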

Other observations

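FLM was 1 of 25 genes with at least 3 listed events, and the only one of them whose events were all called on all 3 days. It was also 1 of 4 genes with at least 3 types of event. Both counts were made after the FLM values were seen, and whether its events overlap in sequence was not tested. MAF3 was 1 of 26 listed events with a PSI at 16 °C of at least 0.97 or at most 0.03, and the only one of these whose minor isoform reached 0.23 on day 3 at 25 °C. These limits were set from its own values.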
